A study of Mus musculus with 6 samples.

Results

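The regions described here are stretches of open chromatin where a peak was called in every library made without SMARTA CD4 T cells and in no library made with them. They were chosen from a deposited table of 74686 regions by overlap of 1 base or more with the deposited peak lists: a region had to overlap a peak in each of the 3 lists without SMARTA cells and no peak in any of the 3 lists with SMARTA cells. This rule held for 2680 regions, 3.59% of the table, and they are called without-only regions below. For comparison, 595 regions met the mirror rule (peaks only with SMARTA cells) and 44446 overlapped a peak in all 6 lists.

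The cells were OT1 CD8 T cells of the mouse, whose transgenic receptor recognises an ovalbumin peptide. They were sorted on CD8 and the congenic marker CD45.1 out of B16-OVA-GP61 tumors, a melanoma line that carries ovalbumin and GP61. All 6 libraries share this line, this tissue and this sort. In 3 libraries the tumors held no SMARTA CD4 T cells, and in the other 3 the mice also had SMARTA cells, which carry a transgenic receptor for GP61. Mouse strain, age, cell doses, days after transfer and whether the replicates came from separate animals are not given in the labels used here, so the spread between replicates may be technical.

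In ATAC-seq a transposase cuts DNA that is not covered by nucleosomes, so the read count of a region measures how accessible it is. A peak caller marks a region as a peak where reads pile up above the local background, and a region without a peak can still hold reads. CD8 T cells that meet their antigen for a long time in a tumor acquire an exhausted state with its own set of accessible enhancers, and the transcription factor Tox is needed to set up that chromatin state. NR4A, NFAT and AP-1 proteins, which act downstream of the T cell receptor, are among the factors known to bind regions that open in exhausted CD8 T cells.

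Sequence was read for the without-only regions that lie over a gene start, since start windows from RefSeq (build GRCm38.p6, 250 bases before to 50 bases after a start) were the only mouse sequence at hand for this build. Of the 2680 regions, 63 overlapped a listed start window, 37 of them a window of a protein-coding gene, and only these were searched. The letters AAGGTCA, the core of the element that NR4A receptors and some other nuclear receptors bind, were found on either strand in 12 of the 63 windows (19%). The 12 windows belong to 7 protein-coding genes and 5 long noncoding RNA genes. In 10 of them the letters lie inside the without-only region itself. These 10 stretches are printed 5′ to 3′ on the strand that spells the letters, because this motif stood farther from its share in all start windows than the others searched. Capitals mark the 7 letters.

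Gm42294 (chr4:63771600-63771626, plus strand): cagaatctcaAAGGTCAatgtggtaat
Gm39671 (chr11:29809247-29809273, minus strand): ccccttggggAAGGTCAacactttcca
Olr1 (chr6:129507325-129507351, minus strand): ttcttagtgaAAGGTCAtgaagcatga
E230029C05Rik (chr7:90029115-90029141, minus strand): cttccttttaAAGGTCAaggctcggct
Gm31452 (chr13:107063690-107063706, plus strand): cctgcagttaAAGGTCA
Atf7ip2 (chr16:10192855-10192881, minus strand): tgacagagcgAAGGTCAgagagcccag
Gzme (chr14:56120757-56120783, plus strand): agctgggataAAGGTCAagaatgtaga
BC035044 (chr6:128891214-128891240, minus strand): agctcatgcaAAGGTCAgagagctaca
Ccl6 (chr11:83593159-83593185, plus strand): agcgagggcaAAGGTCAtggtgggcta
Syt2 (chr1:134646435-134646461, minus strand): gcctcccgtcAAGGTCAgggaaactgc

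Neither the bases before the capitals nor those after them were searched for, apart from a single A before them. With that A (AAAGGTCA) the motif was in 7 of the 63 windows (11.1%). The same 8 letters were in 1.51% of all 32851 start windows and in 0.736% of the 8699 windows of regions with a peak in all 6 lists. They were in 1 of 100 windows where a peak was also called in 1 list with SMARTA cells. Where 1 list without SMARTA cells lacked the peak, they were in 3 of 68 windows (4.41%). The 7-letter form was in 4.72% of all start windows and in 2.53% of the windows of regions with peaks in all 6 lists. Among regions that just missed the rule it was in 3 of 100 windows where a peak was also called in 1 list with SMARTA cells, and in 4 of 68 windows where 1 list without SMARTA cells lacked the peak. The counts are small, and a match in these windows is a description of their letters and not a bound site.

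Other motifs, each searched on both strands, differed less. AP-1 letters (TGANTCA) were in 9 of 63 windows (14.3%), against 7.81% of all start windows and 4.87% of those with peaks in all 6 lists. Both near-miss sets held them in 13 windows, 13.0% and 19.1%. RUNX letters (TGTGGT) were in 22.2% against 16.8% of all start windows, T-box letters (AGGTGT) in 17.5% against 13.7% and E-box letters (CAGNTG) in 57.1% against 51.4%. ETS letters (GGAAGT) were in 22.2% against 23.8%, and TCF letters (CTTTGA) in 11.1% against 16%. NFAT letters (GGAAA) were in 58.7% of the windows and in 61.3% of all start windows. No motif contains another apart from the longer NR4A form, although ETS and NFAT letters share GGAA and NR4A and T-box letters share AGGT. The median GC content of the 63 windows was 52.0%, near that of all start windows (52.7%) and below the 62.0% of the 11805 windows that any region of the table overlaps.

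**Figure D1:**
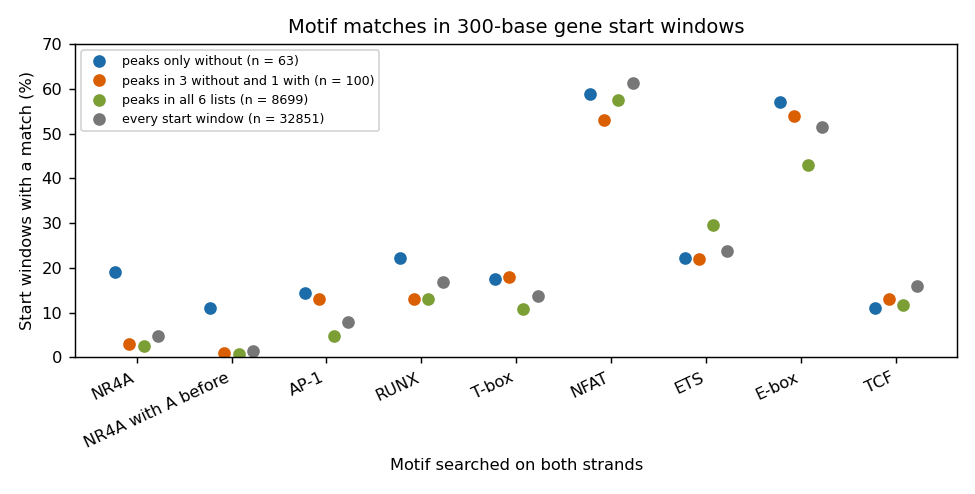
Share of 300-base gene start windows (%, vertical axis) that hold each motif on either strand, for windows of without-only regions (blue, n = 63), of regions with peaks in 3 lists without and 1 list with SMARTA cells (orange, n = 100), of regions with peaks in all 6 lists (green, n = 8699) and for every start window (grey, n = 32851). The NR4A letters stand at 19% in the without-only windows and at 4.72% in every window, while NFAT letters stand at 58.7% and 61.3%.

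The 250 bases before 3 of these starts are given as examples, chosen after their values were seen, of a start window that lies wholly inside a without-only region and holds NR4A or AP-1 letters. The windows of Trpv3 and Met also lie wholly inside one and hold the AP-1 letters. Their regions had log2 folds of -1.16 ± 0.29 (SE) and -0.78 ± 0.42 (with minus without SMARTA cells), and at Met the groups overlapped. Olr1 encodes a lectin-like scavenger receptor for oxidised lipoprotein and its window holds both the NR4A and the AP-1 letters. Gzme encodes granzyme E, a serine protease of cytotoxic lymphocytes, and holds the NR4A letters on the opposite strand (TGACCTT). Rcan1 encodes a regulator of calcineurin, the phosphatase that activates NFAT, and holds the AP-1 letters. Capitals mark the letters of either motif.

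Olr1 (chr6:129507166-129507415, minus strand): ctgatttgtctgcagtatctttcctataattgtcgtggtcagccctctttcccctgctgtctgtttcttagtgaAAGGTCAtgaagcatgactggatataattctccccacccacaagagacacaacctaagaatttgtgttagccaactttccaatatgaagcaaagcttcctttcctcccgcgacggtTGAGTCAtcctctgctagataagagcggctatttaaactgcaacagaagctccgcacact
Gzme (chr14:56120626-56120875, minus strand): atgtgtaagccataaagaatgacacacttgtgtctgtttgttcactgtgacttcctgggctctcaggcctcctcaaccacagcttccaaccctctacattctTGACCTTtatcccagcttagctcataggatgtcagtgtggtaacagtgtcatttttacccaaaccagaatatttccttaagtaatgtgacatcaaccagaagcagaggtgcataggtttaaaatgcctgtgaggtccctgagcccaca
Rcan1 (chr16:92400079-92400328, minus strand): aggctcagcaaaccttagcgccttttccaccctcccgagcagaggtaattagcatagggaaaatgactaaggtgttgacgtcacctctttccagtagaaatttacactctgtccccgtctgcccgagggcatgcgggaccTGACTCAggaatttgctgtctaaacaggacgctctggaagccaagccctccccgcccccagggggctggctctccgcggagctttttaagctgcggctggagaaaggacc

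At the region over the Olr1 start, the counts were 55, 72 and 70 in the libraries without SMARTA cells and 16, 14 and 14 in those with them. Its accessibility was 1.53 ± 0.04 without and -0.32 ± 0.34 log2 CPM with them (log2 of the count scaled to the TMM-adjusted library total, prior count 2, mean ± SD, n = 3 each), a log2 fold of -1.97 ± 0.27 (SE). The region over the Rcan1 start lies inside the gene, 8.24 kb from the nearest gene boundary. Its counts were 56, 59 and 95 without and 15, 24 and 20 with, and the log2 fold was -1.64 ± 0.33. At the Gzme start they were 37, 44 and 35 against 22, 15 and 20, with a log2 fold of -0.85 ± 0.29. The groups did not overlap at any of these 3 starts. By edgeR's quasi-likelihood test with Benjamini-Hochberg adjustment, Olr1 and Rcan1 passed the threshold of 0.05 as lower and Gzme did not (adjusted p 0.0749). Of all regions 10.4% passed as lower. The rule used this contrast, so nothing is read from these calls. The Gzme region had the lowest level without SMARTA cells, the Olr1 region the lowest with them.

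Of the 63 start regions, 26 lay over starts of noncoding RNA genes alone, and at 13 of the 63 the groups overlapped, Met, Dysf, Syt2, Ager, Kctd15 and Rusf1 among them. Over the whole set, every library without SMARTA cells lay above every library with them in 2380 of 2680 regions (88.8%). Over the whole table this held for 18.5%. Another 4 starts of genes known in immune cells are given as examples, again chosen with their values known. Siglecf encodes an inhibitory sialic acid receptor best known on eosinophils, and its start region had 91, 149 and 152 counts without and 30, 15 and 44 with SMARTA cells (log2 fold -1.99 ± 0.25). Cd300lb encodes an activating myeloid receptor and had 57, 98 and 82 against 16, 27 and 31 counts (-1.49 ± 0.27). Il9r encodes the receptor for interleukin 9 and had 189, 93 and 100 against 63, 54 and 51 (-1.04 ± 0.37). Its start region lies inside the gene, 4.87 kb from the nearest gene boundary. Fgr encodes a kinase of the SRC family and had 152, 255 and 232 against 143, 65 and 134 (-0.73 ± 0.25). The groups did not overlap in log2 CPM at any of these 4 starts, with the narrowest gaps at Il9r and Fgr. In the same edgeR test Siglecf and Cd300lb passed the threshold of 0.05 as lower. Il9r and Fgr did not pass it (adjusted p 0.0895 and 0.0714). These calls too are on the contrast that the rule used and are a description, beside 10.4% of all regions passing as lower.

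The rule itself used this contrast, so levels and folds of these regions are given as a description, and no conclusion is drawn from a test on them. In sorted bulk cells, fewer cells with an open region and less opening per cell cannot be told apart. The median level over the 2680 regions was 1.57, 1.53 and 1.47 log2 CPM in replicates 1 to 3 without SMARTA cells, and 0.01, 0.44 and 0.09 in replicates 1 to 3 with them. In counts this is a median of 58, 73 and 65 reads against 18, 21 and 26. Every library without SMARTA cells lay above every library with them in these medians. The without-only regions are weak sites even where they have peaks: regions with peaks in all 6 lists had medians of 3.17 to 3.26 log2 CPM in the libraries without SMARTA cells.

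**Figure D2:**
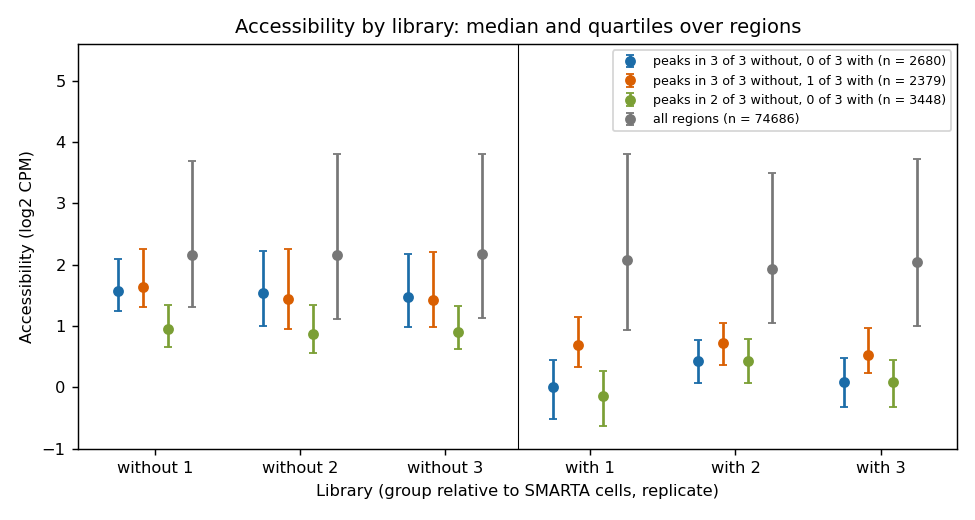
Accessibility in each library (log2 CPM, vertical axis) as the median (point) and quartiles (bars) over regions, for without-only regions (blue, n = 2680), the 2 near-miss sets (orange and green) and all regions (grey, n = 74686). The blue medians are 1.47 to 1.57 in the 3 libraries without SMARTA cells and 0.01 to 0.44 in the 3 with them, and the highest of the latter is replicate 2.

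The median log2 fold (with minus without SMARTA cells, edgeR) was -1.43, with the 10th and 90th percentiles at -2.47 and -0.68 and a range of -3.97 to 0.29. Over all 74686 regions the median was 0.01. A fold of -1 or below was seen in 2009 without-only regions, -2 or below in 623 and -3 or below in 65, while 4 had a fold of 0 or above. By edgeR's quasi-likelihood test with Benjamini-Hochberg adjustment, 1987 of the 2680 were past the threshold of 0.05 as lower and 0 as higher. Of all regions, 15.1% passed in either direction and 10.4% as lower. The count fell to 1301 without replicate 3 with SMARTA cells and was 2178 without replicate 2 with SMARTA cells. The 3 libraries without SMARTA cells all lay above the 3 with them in 2380 regions, against 18.5% of the whole table. Because the rule used this contrast, nothing is read from these shares.

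**Figure D3:**
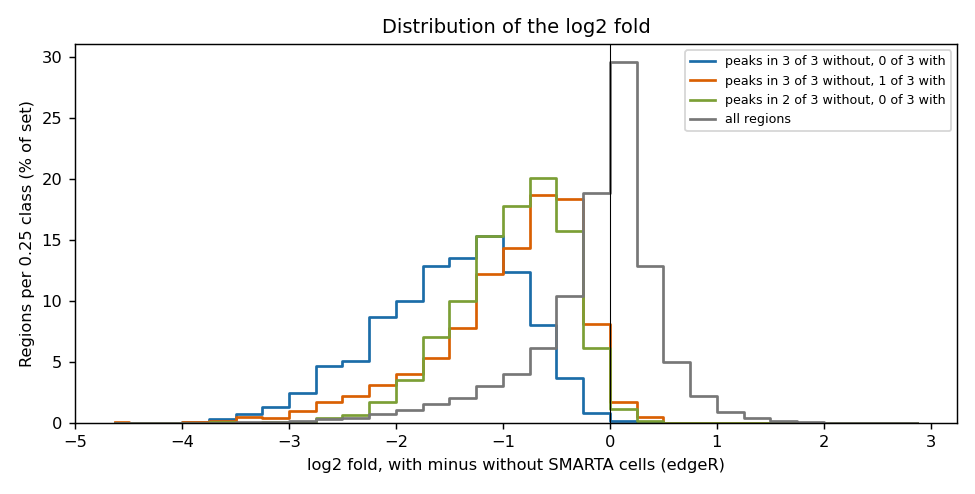
Distribution of the log2 fold (with minus without SMARTA cells, horizontal axis) as the share of each set per class of 0.25 (%, vertical axis), for without-only regions (blue), regions with peaks in 3 lists without and 1 with (orange), regions with peaks in 2 lists without and none with (green) and all regions (grey). The blue curve has its median at -1.43, the orange at -0.79, the green at -0.84 and the grey at 0.01.

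The regions just outside the rule had median folds of the same sign and smaller size. Where a peak was also called in 1 list with SMARTA cells (2379 regions) the median fold was -0.79, and where 1 list without SMARTA cells lacked the peak (3448 regions) it was -0.84. The library that decided these cases was most often replicate 1 of either group. The single peak with SMARTA cells was in the list of replicate 1 for 1650 regions, of replicate 2 for 139 and of replicate 3 for 590. The missing peak without SMARTA cells was that of replicate 1 for 2446 regions, of replicate 2 for 520 and of replicate 3 for 482. In count terms the limit for a peak call differed between libraries: the lowest class of counts (5 reads wide) in which at least 50% of regions had a peak began at 40, 30 and 30 reads in the libraries without SMARTA cells and at 25, 35 and 35 in those with them. Of the without-only regions, 673, 271 and 680 had counts at or above that limit in replicates 1, 2 and 3 with SMARTA cells, although no peak was called there.

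The libraries differed in depth and in their number of peaks. Library totals over the table were 19149455, 26218921 and 24129749 counts without and 20175065, 16595779 and 27182809 with SMARTA cells, and the lists held 65020 to 82089 peaks, the fewest in replicate 2 with SMARTA cells. That library had the lowest total and fewest peaks, yet among the 3 libraries with SMARTA cells it was the highest in log2 CPM at 63.1% of without-only regions, against 39.4% of all regions. The part of depth and of this library in the choice of regions was not tested beyond leaving lists out. Leaving 1 list out of the rule gave 5126, 3200 and 3162 regions (replicates 1 to 3 without SMARTA cells) and 4330, 2819 and 3270 regions (replicates 1 to 3 with SMARTA cells). The set changed least without replicate 2 with SMARTA cells and most without replicate 1 of the libraries without them.

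Accessibility was also read in libraries that the rule had not used. When the rule was applied to 2 lists of each group, and accessibility was read in the remaining library of each group, the 9 possible choices gave 3348 to 7389 regions. The median of the unused library with SMARTA cells minus the unused library without was -0.75 to -1.06 log2 CPM, and 80.7% to 93.4% of the regions were lower with SMARTA cells. Over all regions the same medians were -0.03 to 0.02, and 48.6% to 52.1% were lower. The 2680 without-only regions made up 36.3% to 80.0% of these sets. The labels do not say whether replicates came from separate animals, so the unused libraries may not be independent of the others. The 9 choices share libraries and each compares 1 library with 1 other, so no test was made.

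The peaks behind the rule were of low rank in their own lists, by the authors' peak values. The median fold enrichment at without-only regions was 2.78, 3.76 and 3.49 in the lists of replicates 1 to 3 without SMARTA cells, against 6.71, 8.85 and 8.64 at regions with peaks in all 6 lists. Their median percentile within the list was 27.5, 39.1 and 35.6. A deposited −log10 q under 5 was found for 664, 334 and 345 of them. The summits of the 3 peaks at a without-only region spread over a median of 35 bases, against 12 bases at regions with peaks in all 6 lists. Most without-only regions (2597) had the standard width of 401 bases, 83 were wider, and the widest spanned 1111 bases.

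Without-only regions lay away from gene ends. Within 2 kb of a boundary (either end of a protein-coding gene) were 242 regions, or 9.03%, against 23.7% of all regions and 30.8% of those with peaks in all 6 lists. Farther inside a gene were 51.0% (43.4% of all regions), 32.2% lay 2 to 100 kb outside genes (28.2%) and 7.69% more than 100 kb from any gene (4.67%). Regions with peaks only with SMARTA cells had nearly the same make-up, with 10.9% within 2 kb of a boundary. The median fold of without-only regions was -1.15 near boundaries, -1.40 farther inside genes, -1.49 outside genes and -1.61 beyond 100 kb, in that order.

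**Figure D4:**
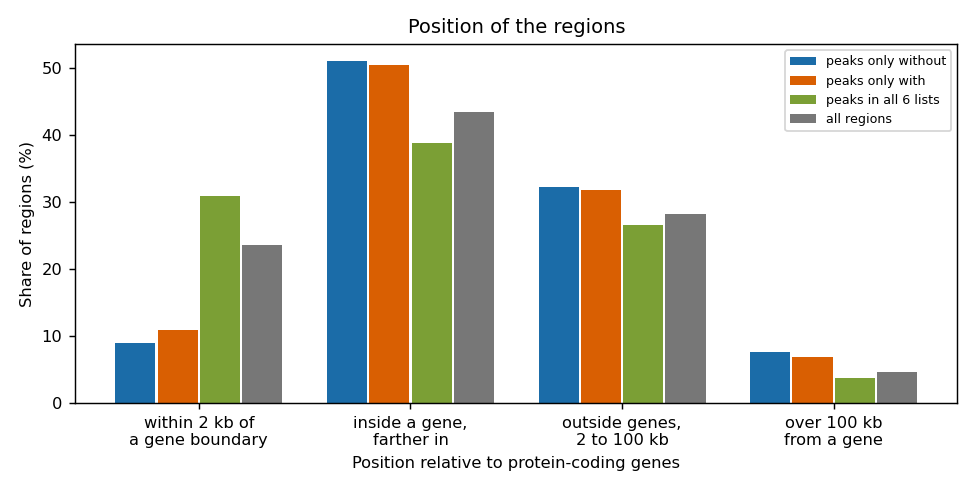
Share of regions (%, vertical axis) by position relative to protein-coding genes, for without-only regions (blue), regions with peaks only with SMARTA cells (orange), regions with peaks in all 6 lists (green) and all regions (grey). Within 2 kb of a gene boundary the without-only share is 9.03% and that of regions with peaks in all 6 lists 30.8%.

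Level and position go together in this table, so the share of regions that were without-only is also given within 5 equal classes of mean level. In the weakest class 1581 of 14938 regions (10.6%) were without-only, and the share was 8.63% within 2 kb of a boundary, 10.3% farther inside genes, 10.9% at 2 to 100 kb and 13.5% beyond 100 kb. In the second class the shares in the same order were 3.13%, 5.40%, 4.59% and 6.50%. In the third class they were 1.70%, 2.00%, 1.68% and 1.43%, and in the fourth 0.56%, 0.65%, 0.60% and 0.30%, so in these classes the share was lowest beyond 100 kb, where 10 of 700 and 2 of 659 regions were without-only. In the strongest class only 4 of 14937 regions were without-only. Of those 14937 strongest regions 8681 lay within 2 kb of a boundary. The gap near boundaries was thus smaller within a class of level than over the whole table. By chromosome, the share of regions that were without-only ran from 2.34% on chromosome X (37 of 1583) to 4.59% on chromosome 13 (158 of 3445), leaving out chromosome Y, where 0 of 6 were.

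Some without-only regions lay beside a peak of a library with SMARTA cells. The gap to the nearest such peak was at most 100 bases for 60 regions, up to 500 bases for another 225, up to 2000 bases for another 600 and over 2000 bases for 1795. The median fold in these classes was -0.99, -1.14, -1.39 and -1.49. All 40 regions with a mean level above 2.5 log2 CPM with SMARTA cells were within 2000 bases of such a peak (5, 14 and 21 in the 3 nearer classes). The class beyond 2000 bases held 67.0% of the set and the lowest median fold.

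The strongest members illustrate the far end of the range. The region with the smallest edgeR p lay inside Tnr, which encodes the extracellular matrix protein tenascin-R, at chr1:159674133-159674533. Its counts were 246, 273 and 231 without and 16, 16 and 21 with SMARTA cells, or 3.43 ± 0.18 against -0.09 ± 0.14 log2 CPM, a log2 fold of -3.66 ± 0.23. The nearest peak with SMARTA cells was 109266 bases away. A pair of regions outside Sucnr1, the receptor for succinate, had log2 folds of -3.70 ± 0.26 and -3.61 ± 0.26 and stood 37.0 and 40.9 kb from the gene. At the former, chr3:60124406-60124806, the counts were 159, 249 and 291 against 15, 10 and 23.

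The others of the 10 with the smallest p lay near or in genes with no shared role in T cells. They were assigned to Uqcrfs1 (a subunit of mitochondrial complex III), Abhd4, Dock10, Srgap3, Ugt1a10 and Nat10 (an RNA acetyltransferase), and 1 had no gene within 100 kb. Their log2 folds ran from -3.64 ± 0.26 at Ugt1a10 to -3.03 ± 0.22 at Nat10. None of these 10 regions lay within 2 kb of a gene boundary, and over all of them the lowest count without SMARTA cells was 119 and the highest with them was 30.

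Among the most accessible members the picture was mixed. A region inside Cx3cr1, which encodes the fractalkine receptor of effector CD8 T cells, had 738, 695 and 673 counts without and 142, 56 and 112 with SMARTA cells, or 4.92 ± 0.25 against 2.25 ± 0.56 log2 CPM (log2 fold -2.62 ± 0.27). A region inside Zap70, the kinase that binds the activated T cell receptor, had 360, 783 and 775 against 141, 39 and 151 counts (-2.39 ± 0.35). Regions near Tg, near Fndc1 and inside Galnt2 had log2 folds of -1.67 ± 0.22, -2.21 ± 0.26 and -1.91 ± 0.26. The groups did not overlap at any of these 5, and the lowest of the 6 counts was each time in replicate 2 with SMARTA cells, the library with the lowest total.

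The other 5 of the 10 most accessible members kept most of their signal with SMARTA cells and had no peak called there. A region 10.8 kb from Dad1 had the highest level, with 769, 977 and 881 counts against 519, 294 and 649 (5.23 ± 0.04 and 4.50 ± 0.30 log2 CPM, log2 fold -0.71 ± 0.15), and lay 115 bases from a peak with SMARTA cells. A region inside Cd3d, a chain of the CD3 complex, had 429, 543 and 533 against 352, 213 and 486 counts (-0.39 ± 0.17) and lay 23 bases from such a peak. Regions at Tmc6 (-0.18 ± 0.15), Tspoap1 (-0.24 ± 0.16) and Zbtb7a (-0.43 ± 0.18) had 161, 393 and 1311 bases to the nearest one, and at Tspoap1 the groups overlapped. At these regions the absence of an overlapping peak does not go with low accessibility.

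The 5 regions with a fold nearest to or above 0 were also regions where the peak lists and the counts differ. A region on chromosome 15 with no gene within 100 kb had 42, 59 and 56 counts without and 48, 57 and 63 with SMARTA cells (log2 fold 0.29 ± 0.22). One inside Leprotl1 had 209, 254 and 281 against 219, 160 and 314 counts (0.04 ± 0.18) and lay 87 bases from a peak with SMARTA cells. Those at Ppp1r12a (0.05 ± 0.26), Epsti1 (0.01 ± 0.33) and Atp8b4 (-0.02 ± 0.25) also had overlapping groups, as all 5 did.

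The without-only regions were assigned to genes by the protein-coding gene that holds them or else the nearest within 100 kb, which does not show which gene a region acts on. Of 15540 genes with a region, 1846 had at least 1 without-only region: 1440 had 1, 289 had 2, 94 had 3 or 4, and 23 had 5 or more. Another 206 without-only regions had no gene within 100 kb. Long runs were rare, with 2234 regions standing singly between other regions of the table, 168 runs of 2, 23 of 3, 6 of 4, 2 of 5 and 1 of 7.

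Tox stood first, with 18 without-only regions of 37 assigned to it, all 18 inside the gene. Tox encodes an HMG-box transcription factor, and its interval runs over chr4:6686353-6991557 (305 kb). The strongest by p was chr4:6834301-6834701, with 157, 183 and 133 counts without and 18, 13 and 17 with SMARTA cells, or 2.77 ± 0.26 against -0.22 ± 0.24 log2 CPM (log2 fold -3.13 ± 0.25). The nearest peak with SMARTA cells was 8907 bases away. The 18 regions had a median fold of -1.76 and a range of -3.43 to -0.35, and 17 of them passed edgeR's test as lower, a count that fell to 9 without replicate 3 with SMARTA cells. It was also 11, 11 and 12 without replicate 1 or 3 of the libraries without SMARTA cells or replicate 1 of those with them. With all 6 libraries, 10.4% of all regions and 1987 of the 2680 without-only regions (74.1%) passed as lower. The rule used this contrast, so nothing is read from the count at Tox.

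The longest run of the whole set lay in Tox. It held 7 regions between 6856879 and 6870920 on chromosome 4 (14.0 kb), with no other region of the table between them, and a median fold of -1.83. Its strongest member, chr4:6859741-6860141, had 146, 136 and 101 counts without and 11, 21 and 11 with SMARTA cells (-2.96 ± 0.37). Its weakest by level, chr4:6870520-6870920, had 36, 34 and 38 against 6, 10 and 14 (-1.69 ± 0.35). In each of the 7 regions replicate 2 had the highest level of the libraries with SMARTA cells, and without that library the median fold of the run was -2.45. Without replicate 3 with SMARTA cells it was -1.77, and 4 of the 7 regions passed as lower, as did 1301 of all 2680 without-only regions. In that fit 4403 of all 74686 regions passed as lower.

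The rule chose by this contrast, so a smaller change in the other 19 regions of Tox is no separate result. Their median fold was -0.51, 18 of them were below 0, and 11 had a peak in all 6 lists. The most accessible one, at chr4:6991009-6991409 and 0.35 kb from the upper boundary of the gene, had 637, 911 and 826 counts without and 539, 521 and 799 with SMARTA cells (5.07 ± 0.07 against 4.89 ± 0.10 log2 CPM, log2 fold -0.19 ± 0.11). Between 95.4 and 134.5 kb from that boundary, 11 of 12 regions were without-only, and the twelfth, at 110.4 kb, had a fold of -2.39 ± 0.25 with a peak in 2 lists with SMARTA cells. The without-only regions of Tox thus lay in the interior of the gene. The region at its upper end had a peak in all 6 lists, so the rule could not choose it. The other regions inside the gene ran from -2.39 to 0.04 in fold. Among them were folds of -2.17, -1.24, -1.48 and -1.11 at 179.4, 174.1, 147.4 and 87.7 kb. At 66.6, 56.4, 41.1 and 20.8 kb the folds were -0.11, -0.12, -0.09 and 0.04.

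**Figure D5:**
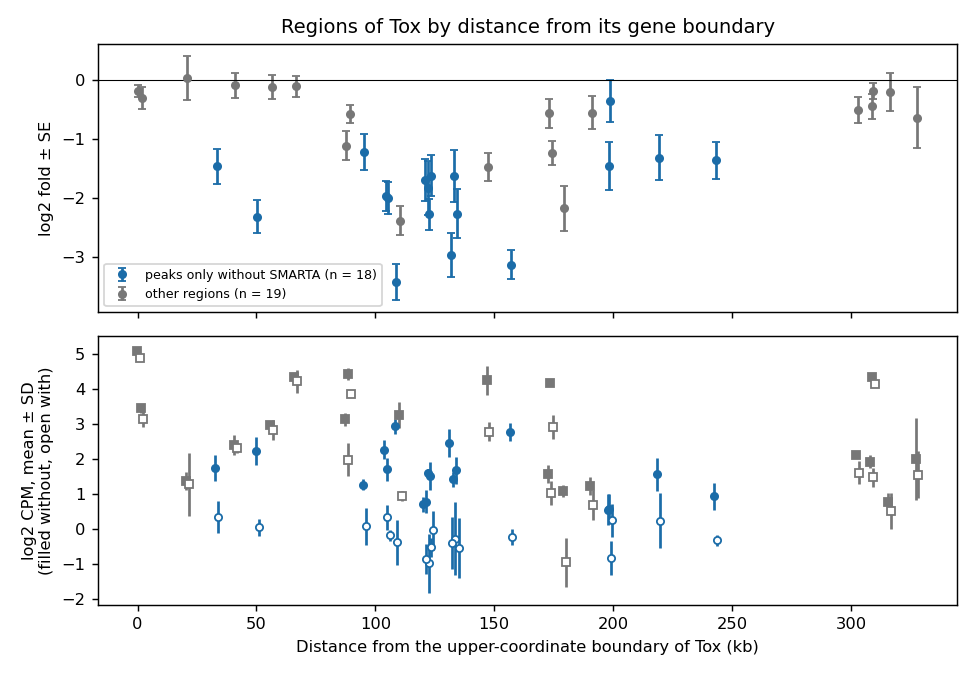
The 37 regions of Tox by distance from its upper-coordinate boundary (kb, horizontal axis), as the log2 fold ± SE (upper panel) and as mean log2 CPM ± SD over 3 libraries (lower panel, filled without and open with SMARTA cells). The 18 without-only regions (blue) run from -3.43 to -0.35 in fold, and the other 19 (grey) have a median of -0.51.

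After Tox came Runx2 with 8 of 62 regions, a RUNX family transcription factor, and then Setbp1 (7 of 17), St6galnac3 (7 of 21), a sialyltransferase, and Slc1a2 (7 of 16), a glutamate transporter. Acoxl (6 of 34), Foxn3 (6 of 39), Nrp1 (6 of 65), Mdfic (6 of 30) and Inpp4b (6 of 73) completed the 10 genes with most, ties being taken by the smallest p. Nrp1 encodes neuropilin-1, a semaphorin receptor on some T cells, and Inpp4b a phosphatase of phosphoinositides. Median folds of their without-only regions ran from -1.22 at Slc1a2 to -2.26 at Foxn3, and none of the without-only regions of the 10 genes was within 2 kb of a gene boundary. The strongest at Acoxl had 129, 248 and 239 counts without and 18, 12 and 28 with SMARTA cells (-3.24 ± 0.26), and the strongest at Inpp4b had 104, 235 and 217 against 19, 15 and 20 (-3.16 ± 0.28).

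The most accessible region of each of these genes fell into 2 kinds. In 8 of the 10 genes it had a small fold, between -0.43 ± 0.16 at Foxn3 and -0.10 ± 0.10 at Inpp4b. At Inpp4b its counts were 1532, 1807 and 1570 without and 1402, 926 and 1864 with SMARTA cells, and the groups overlapped. At St6galnac3 and Slc1a2 the most accessible region was itself far lower with SMARTA cells, with 760, 798 and 791 against 257, 136 and 309 counts (-1.62 ± 0.18) and 299, 482 and 337 against 107, 33 and 95 (-2.10 ± 0.31).

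Regions that share a gene with a without-only region, but that the rule had not chosen, were described by the number of without-only regions of that gene. Of 17493 other regions of genes with a without-only region, 13.1% passed as lower and 4.12% as higher in the edgeR test. Of 51231 regions of genes with none, 5.95% passed as lower and 5.04% as higher. The share passing as lower was 11% in genes with 1 without-only region, 14.5% with 2, 19% with 3 or 4 and 24.0% with 5 or more (169 of 705 regions in 23 genes). Their median folds were -0.04, -0.09, -0.21 and -0.28. Regions of a gene share their libraries and their surroundings, and some of these regions missed the rule by a single list, so the shares are a description. The single most accessible other region of each gene with a without-only region had a median fold of 0.07, against 0.09 in genes with none, and 9.31% and 3.34% of them passed as lower. As higher passed 8.52% and 6.31%.

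Lists of T cell genes were described by role, each set beside the 3.59% of the whole table. Their regions that were not without-only are set beside the same over the whole table, where 5780 of 72006 such regions (8.03%) passed as lower and 3497 (4.86%) as higher. Exhaustion transcription factors had the highest share among the T cell lists, with 35 without-only regions of 344 (10.2%), spread over 10 of 18 genes with 18 of the 35 at Tox. Without Tox it held 17 of 307 (5.54%). With a leading gene left out in the same way, NF-kB and AP-1 regulators held 4.95% (without Tnfaip3). Inhibitory receptors then held 4.73% (without Cd5) and costimulatory genes 5.31% (without Cd226). Cd5 was tied at 2 regions with Lair1, and Cd226 at 2 with Tnfsf8, Icos and Tnfsf14. Shares without those tied genes were not computed. Apart from Tox, the exhaustion genes with without-only regions included Nfatc1 (5), which encodes an NFAT factor, Ikzf2 (2), Prdm1 (2) and Maf (2). The Ikzf2 region, inside the gene of the Ikaros family factor Helios, had 87, 127 and 120 counts without and 11, 18 and 19 with SMARTA cells (-2.61 ± 0.25). The Prdm1 region, inside the gene of the repressor Blimp-1, had 188, 215 and 203 against 89, 48 and 73 (-1.36 ± 0.23). Of the 309 regions of the list that were not without-only, 57 passed as lower (18.4%) and 16 as higher.

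Among NF-kB and AP-1 regulators 14 of 224 regions (6.25%) were without-only. Tnfaip3, which encodes the NF-kB inhibitor A20, held 5 with folds of -2.75 to -0.53, and Nfkbiz, which encodes a nuclear IkB protein, held 4 with folds of -2.37 to -0.74. A region 13.5 kb from Jun, an AP-1 subunit, had 131, 99 and 108 counts without and 15, 17 and 13 with SMARTA cells (-2.74 ± 0.32). Rela and Rel, which encode NF-kB subunits, held 1 each (-1.55 ± 0.36 and -1.15 ± 0.29). Of the other 210 regions of this list 34 passed as lower (16.2%) and 12 as higher.

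Inhibitory receptors and ligands held 9 of 160 (5.63%). The region near Tigit, the gene of a checkpoint receptor, had 371, 384 and 389 counts without and 107, 44 and 117 with SMARTA cells (-1.97 ± 0.26), 37.2 kb outside the gene. A region inside Entpd1, which encodes the ectonucleotidase CD39, had 63, 149 and 94 against 12, 21 and 16 (-2.42 ± 0.34), and one inside Cd200r1 98, 116 and 107 against 13, 13 and 10 (-2.96 ± 0.27). Lair1 and Cd5 held 2 each. Of the other 151 regions 25 passed as lower (16.6%) and 4 as higher.

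T cell receptor signalling genes and their brakes held 23 of 513 (4.48%), 6 of them at Ubash3b, which encodes a phosphatase that restrains receptor signalling. Its strongest region had 94, 127 and 139 counts without and 20, 8 and 12 with SMARTA cells (-2.98 ± 0.30). A region 30.9 kb from Spry1, a brake on RAS signalling, had 62, 103 and 128 against 12, 20 and 19 (-2.32 ± 0.31). Zap70, Cblb, a ubiquitin ligase that limits activation, and Prkcq, the kinase PKC-theta, held 2 each. The other 490 regions gave 90 passing as lower (18.4%) and 6 as higher.

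Costimulatory receptors and ligands held 13 of 234 (5.56%), among them Icos, Tnfsf8, Tnfsf14 and Cd226 with 2 each and Tnfsf4, the gene of OX40 ligand, with 1. The Icos region, 35.1 kb from the gene, had 91, 195 and 182 counts without and 33, 25 and 43 with SMARTA cells (-2.03 ± 0.25). The other 221 regions gave 33 passing as lower (14.9%) and 13 as higher. Chemokine receptors and migration genes had a share below that of the table, 6 of 233 (2.58%). There were 2 at Cd44 and 1 each at Itgb1, Itgae, Cxcr3 and Itga4, with overlapping groups at Itga4. The other 227 regions of this list gave 17 passing as lower (7.49%) and 20 as higher.

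The share of effector and memory genes that was without-only lay near that of the table. Cytotoxic and effector molecules held 7 of 165 (4.24%), 3 of them at Ifng, the gene of interferon gamma, 3 at Xcl1 and 1 at Prf1, the gene of perforin. The Ifng region with the smallest p, 53.7 kb outside the gene, had 51, 48 and 48 counts without and 11, 11 and 15 with SMARTA cells (-1.83 ± 0.29). The other 158 regions of the list gave 28 passing as lower (17.7%) and 3 as higher. Effector differentiation genes held 10 of 237 (4.22%). A region inside Il2ra, which encodes the alpha chain of the interleukin 2 receptor, had 159, 180 and 202 against 15, 3 and 30 counts (-3.38 ± 0.37), and one near Il12rb2 69, 121 and 90 against 12, 8 and 21 (-2.61 ± 0.26). The other 227 regions of this list gave 23 passing as lower (10.1%) and 3 as higher.

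Naive, memory and progenitor genes held 21 of 476 (4.41%). A region 5.8 kb from Ccr7, the receptor that guides naive T cells into lymph nodes, had 270, 307 and 318 counts without and 26, 9 and 43 with SMARTA cells (-3.41 ± 0.31). Foxp1, a factor that maintains quiescence, held 4 and its strongest had 85, 233 and 185 against 24, 13 and 31 (-2.70 ± 0.32). Bcl2, which encodes a survival protein, held 3, the strongest with 113, 149 and 127 against 23, 14 and 22 (-2.55 ± 0.22). The other 455 regions gave 56 passing as lower (12.3%) and 20 as higher. Interferon-stimulated genes held 0 of 51 and cell cycle genes 1 of 128, at Ccnd2. These lists are of unequal size, and their shares are given without a test.

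Markers of the sorted cells and of other cell types were read in the same way. The CD8 T cell identity list held 4 without-only regions of 134 (2.99%), at Cd6, Cd8a, Cd3d and Runx3, with folds of -1.43 to -0.30. At Runx3 (-0.30) the groups overlapped, and the fold was 0.06 without replicate 1 of the libraries without SMARTA cells. The summed accessibility of the list, scaled to library totals, was 2085 to 2143 CPM without and 1844 to 2145 CPM with SMARTA cells. Melanocyte and melanoma markers held 0 of 45 regions, with sums of 395 to 437 and 402 to 426 CPM, and B cell markers 0 of 34, with sums of 170 to 235 and 126 to 159 CPM. CD4 and regulatory T cell genes held 3 of 52, with sums of 578 to 622 and 551 to 629 CPM. The sums of these lists overlapped between the groups except for B cell markers, which were lower in every library with SMARTA cells. Macrophage and monocyte genes held 3 of 54, dendritic genes 1 of 58, NK genes 3 of 30 and fibroblast and endothelial genes 1 of 42. The macrophage sums were 495 to 522 and 486 to 521 CPM, the dendritic sums 421 to 504 and 403 to 506 CPM, the NK sums 412 to 440 and 424 to 451 CPM and the fibroblast and endothelial sums 278 to 304 and 222 to 242 CPM. The fibroblast and endothelial sums were lower in every library with SMARTA cells as well, and the others overlapped. Open chromatin at a marker is not its expression, and the part of other cells in the without-only regions was not tested beyond these sums.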

How the data were processed

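ATAC-seq libraries of sorted OT1 cells were compared between 3 libraries without and 3 with SMARTA cells, grouped by the sample titles. The deposited region table holds whole-number read counts with no normalization. The deposited peak lists, one per library, are in the narrowPeak layout. The authors' columns are a score (the −log10 p times 10, cut to its whole part), the fold enrichment as a ratio to the background nearby, −log10 values of p and q, and the summit. Build GRCm38 and the tools DiffBind 3.4.11, MACS2 2.1.1, Picard 2.18.9, SAMtools 1.8 and BWA 0.7.17 stand in the submitters' processing notes, with no role or setting. How duplicates, the transposase shift and the region table were handled is not given in the sources used here, and any duplicates left in would raise counts.

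The region set, the gene lists and the named regions were chosen with earlier results of these data known. Regions were overlapped with peaks by 1 base or more. Counts were fitted over all 74686 regions with edgeR 4.0.16 under R 4.3.3 (TMM, filterByExpr, quasi-likelihood test, Benjamini-Hochberg threshold 0.05). The SE is the size of the log2 fold divided by the root of F. Levels are log2 CPM on TMM-adjusted totals with a prior count of 2. On counts simulated for this comparison over 74686 regions, the code recovered 10, 23, 47 and 50 of 50 regions changed 1.5-, 2-, 4- and 8-fold, with 2 false calls. No library pair agreed within sampling noise (lowest chi-square per degree of freedom 2.76). Library totals ran from 16595779 to 27182809 counts, and a median of 18 to 73 counts per chosen region leaves counting error as a large part of the spread in the weakest ones.

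Gene names and boundaries came from the RefSeq table of GRCm38.p6, without strand; exons and introns were not distinguished. No genome sequence was used, so the planned search of all chosen regions for motifs was limited to RefSeq start windows, which list 17492 of 21900 protein-coding genes. The search with an A before the NR4A letters, the reading in unused libraries and the lists without a leading gene were added after the data were seen. Named are the 10 chosen regions with the smallest p, the 10 with the highest level without SMARTA cells, the 5 with folds nearest to or above 0, the 10 genes with most chosen regions, up to 5 genes per list (19 lists, 283 symbols; some are not reported here) and the longest run; start windows were named for their letters or as genes known in immune cells after their values were seen. DESeq2 1.42.0, other scalings, filters, a replicate block, left-out libraries and other peak rules served as alternatives.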

Additional observations from a re-analysis of the deposited data

Results flagged for a closer look

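Peaks that met the same rule also lay outside the region table: 352 peaks shared by the 3 lists without SMARTA cells overlapped no peak with SMARTA cells and no region of the table. The mirror case, peaks shared by the 3 lists with SMARTA cells and absent without, gave 130. The table holds no counts for these places, so their accessibility was not compared between libraries.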

How the results depend on the processing

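The number of regions that met the rule moved with the rule itself: 1542 with an overlap of at least 200 bases in the lists without SMARTA cells, 1736 with a −log10 q of 5 or more in those lists, 5059 with a peak allowed in 1 list with SMARTA cells, 6128 with peaks in at least 2 lists without them, and 2819 to 5126 with 1 list left out, the most without replicate 1 of the libraries without SMARTA cells. It was 2560 with a −log10 q of 5 or more in all lists. The share near a gene boundary was 4.18% at 1 kb and 18.5% at 5 kb, against 17.9% and 34.4% of all regions. Of all regions 11264 passed, and 6074 to 12669 with 1 library left out. Of the chosen regions 1301 to 2178 passed as lower with 1 library left out, and their median fold ran from -1.57 to -1.35. Other scalings, filters and DESeq2 gave 1940 to 1995 and medians of -1.47 to -1.30. In all of these settings 2660 chosen regions had a fold below 0. The labels do not say whether replicate numbers pair the libraries. Deviations of same-numbered libraries correlated at -0.02, -0.08 and 0.08, which does not settle it. With a replicate block 1790 chosen regions and 10475 of all regions passed, with a median fold of -1.43. The fall to 1301 came without replicate 3 with SMARTA cells, the deepest library, and its cause was not tested.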
